A study of Mus musculus with 12 samples.

Results

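The receptors of the TNF family cytokines BAFF and APRIL are Tnfrsf13c, the BAFF receptor, Tnfrsf13b, called TACI, and Tnfrsf17, called BCMA. They were followed here in splenic B cells of mice that could lose the transcription factor Ebf1. The measurements are those of all probes that the array design names after these 3 genes: 1 probe of Tnfrsf13c, 2 of Tnfrsf13b and 1 of Tnfrsf17, that is 3 of 27962 names in the design and 4 of 41174 probes.

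The 4 groups were LPS-treated fl/fl, LPS-treated +/fl, resting fl/fl and resting +/fl B cells, with 3 arrays in each. All mice were C57BL/6 and carried RERT-Cre, a Cre recombinase fused to an oestrogen receptor domain, which acts once tamoxifen is given. The fl/fl mice (Ebf1fl/flRERTCre) had both Ebf1 alleles floxed, and the +/fl mice (Ebf1+/flRERTCre) had 1 floxed and 1 normal allele and served as the controls. The controls therefore also carried Cre and could lose 1 allele. All mice received 3 mg of tamoxifen citrate on each of 4 days and were killed on day 10. The labels give 2 sorting gates, B220+AA4.1- cells with or without a further gate on low CD21, but not which sample went through which, and they give neither the dose nor the time of LPS, the bacterial ligand of TLR4. The ages of the mice are not given in the sources used here. The labels speak of triplicates but not of separate animals. The p-values therefore cover the spread among these samples alone, and it may be technical.

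BAFF and APRIL are made mainly by myeloid and stromal cells. BAFF binds all 3 receptors, while APRIL binds TACI and BCMA. The BAFF receptor keeps mature follicular and marginal zone B cells alive: on ligand binding it draws TRAF3 away from the kinase NIK (Map3k14), which opens the alternative NF-kB arm of Nfkb2 and Relb. TACI serves antibody responses that need no T cell help and restrains B cell numbers in mice, and BCMA is a receptor of plasma cells.

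The probes are shown here because the TACI result depends on which probe is read. Each is 60 bases long, printed 5′ to 3′ in lower case as the array design gives it, with positions on the mm7 build as in the scanner files.
Tnfrsf13c probe A_51_P457187: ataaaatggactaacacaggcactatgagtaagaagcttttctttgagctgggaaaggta
Tnfrsf13b probe A_52_P343455: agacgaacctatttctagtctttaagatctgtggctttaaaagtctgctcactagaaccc
Tnfrsf13b probe A_51_P106269: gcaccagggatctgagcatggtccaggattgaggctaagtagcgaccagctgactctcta
Tnfrsf17 probe A_51_P270807: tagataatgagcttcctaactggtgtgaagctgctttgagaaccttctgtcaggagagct
The Tnfrsf13c probe lies on chr15:82306190-82306249, minus strand, and was designed on NM_028075. The Tnfrsf13b probe A_52_P343455 lies on chr11:61230555-61230614, plus strand, and was designed on the cDNA AK004668. The other Tnfrsf13b probe was designed on NM_021349 and its listed position, chr11:61223024-61228432 on the plus strand, spans 5409 bases, far more than its length. The Tnfrsf17 probe was designed on NM_011608 and lies on chr16_random:436643-436702, minus strand. GC content was 38.3% in the Tnfrsf13c probe, 40% and 55% in the Tnfrsf13b probes A_52_P343455 and A_51_P106269, and 45% in the Tnfrsf17 probe. Whether a probe falls in coding sequence or in a UTR was not analysed here.

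Values are log2 of the background-subtracted signal minus the 75th percentile of the same array, so that 0 is the level of that percentile. The number of arrays limits the precision. The arrays were alike in the share of spots well above background (54.4% to 61.4%), except LPS fl/fl replicate 2 with 83.2%. Its median signal was 93.0, against 19.0 to 35.9 on the other arrays. The 10 general B cell markers were above background on all 12 arrays. Of 2 Ebf1 probes, A_52_P531838 was lower in resting fl/fl than in resting +/fl cells (log2 difference −1.90, SE 0.49, limma adjusted p = 0.0432) and A_51_P188054 was higher (0.62, SE 0.15, limma adjusted p = 0.0382). After LPS neither probe passed for genotype: A_52_P531838 gave −0.92 (SE 0.49, limma adjusted p = 0.316) and A_51_P188054 gave 0.12 (SE 0.15, limma adjusted p = 0.673). Which part of Ebf1 was floxed is not stated in the labels, and the probes cannot check the genotypes.

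The BAFF receptor was measured in all groups and was lowest in LPS-treated fl/fl cells. Tnfrsf13c read 3.15, 3.30 and 2.86 in LPS fl/fl cells, against 4.55, 5.003 and 4.71 in LPS +/fl cells. In resting fl/fl cells it read 4.24, 4.15 and 4.29, against 4.68, 4.61 and 4.84 in resting +/fl cells. All 3 LPS fl/fl arrays lay below the other 9 arrays, and the fl/fl and +/fl arrays did not overlap in either state. The share of all probes without overlap is not given, here or for the other receptor probes. The probe was well above background and unsaturated on all 12 arrays. As background-subtracted signal it spanned 4342 to 7127 in LPS fl/fl cells, against 13934 to 20464 in LPS +/fl cells, and 6041 to 7578 in resting fl/fl cells, against 8076 to 13048 in resting +/fl cells.

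After LPS, Tnfrsf13c was 3.13-fold lower in fl/fl than in +/fl cells (95% interval 2.49- to 3.95-fold). The means were 3.104 ± 0.22 in LPS fl/fl cells and 4.75 ± 0.23 in LPS +/fl cells (SD, n = 3 each), a log2 difference of −1.65 (SE 0.15, limma adjusted p = 0.00301). By p-value it ranked 6 of the 25678 probes tested. Of those probes 1.03% passed the adjusted threshold of 0.05 in this comparison and 0.444% were lower in fl/fl cells, while 1 of the 4 receptor probes passed. Only 1 of the 3 slides held both LPS genotypes, and on it the difference was −1.68. With slide as a fixed block it was −1.72 (limma adjusted p = 0.0201). The call was lost with the normexp background correction (−1.17, limma adjusted p = 0.831) and with the 6 LPS arrays fitted alone (−1.65, limma adjusted p = 0.0612).

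In resting cells Tnfrsf13c averaged 4.23 ± 0.07 in fl/fl and 4.71 ± 0.12 in +/fl cells (SD, n = 3 each), a log2 difference of −0.48 (SE 0.15, 95% interval −0.82 to −0.15). It missed the threshold (limma adjusted p = 0.0757). It was lower in fl/fl cells on each of the 3 slides, by −0.36, −0.53 and −0.55. The call was gained with a filter for probes above background on all 12 arrays (limma adjusted p = 0.0491), with trended and robust variances (0.0360) and with the repaired normexp correction (−0.52, limma adjusted p = 0.0451). In resting cells 7.80% of all probes passed, and 0 of the 4 receptor probes (1 of them, Tnfrsf13c, had an unadjusted p under 0.05). Over both states together, an exact two-sided permutation test with genotype exchanged within each state gave a mean difference of −1.07 (exact p = 0.005, the smallest it can give, 1 of 8 such tests on the receptor probes).

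LPS changed the BAFF receptor in fl/fl cells, while the difference in +/fl cells was close to 0 with the scaling used here. Tnfrsf13c was 2.18-fold lower in LPS than in resting fl/fl cells (log2 difference −1.12, SE 0.15, limma adjusted p = 0.000124). The same contrast in +/fl cells gave 0.04 (SE 0.15, 95% interval −0.29 to 0.38, limma adjusted p = 0.82), and the arrays overlapped. That small difference changes sign with scaling. It was −0.37 after quantile normalization (limma adjusted p = 0.0586) and −0.36 in the deposited table (limma adjusted p = 0.0631), both just short of the threshold. The difference between the LPS responses of the genotypes was −1.17 (SE 0.21, 95% interval −1.64 to −0.69) and missed the threshold (limma adjusted p = 0.0649). It passed with array weights (−1.14, 0.0344), with trended and robust variances (0.0200), with the filter on all 12 arrays (0.0349) and with the repaired normexp correction (−1.12, 0.0367), each as limma adjusted p. In the deposited table it was −0.91 (limma adjusted p = 0.118). LPS moved much of the array: 55.0% of probes passed in fl/fl cells and 23.8% were lower, and 57.1% passed in +/fl cells and 26.0% were lower, against 0.132% for the difference between the responses. Ordered by level, LPS fl/fl stood lowest, then resting fl/fl, then resting +/fl and LPS +/fl, and the last 2 did not differ beyond their spread.

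**Figure D1:**
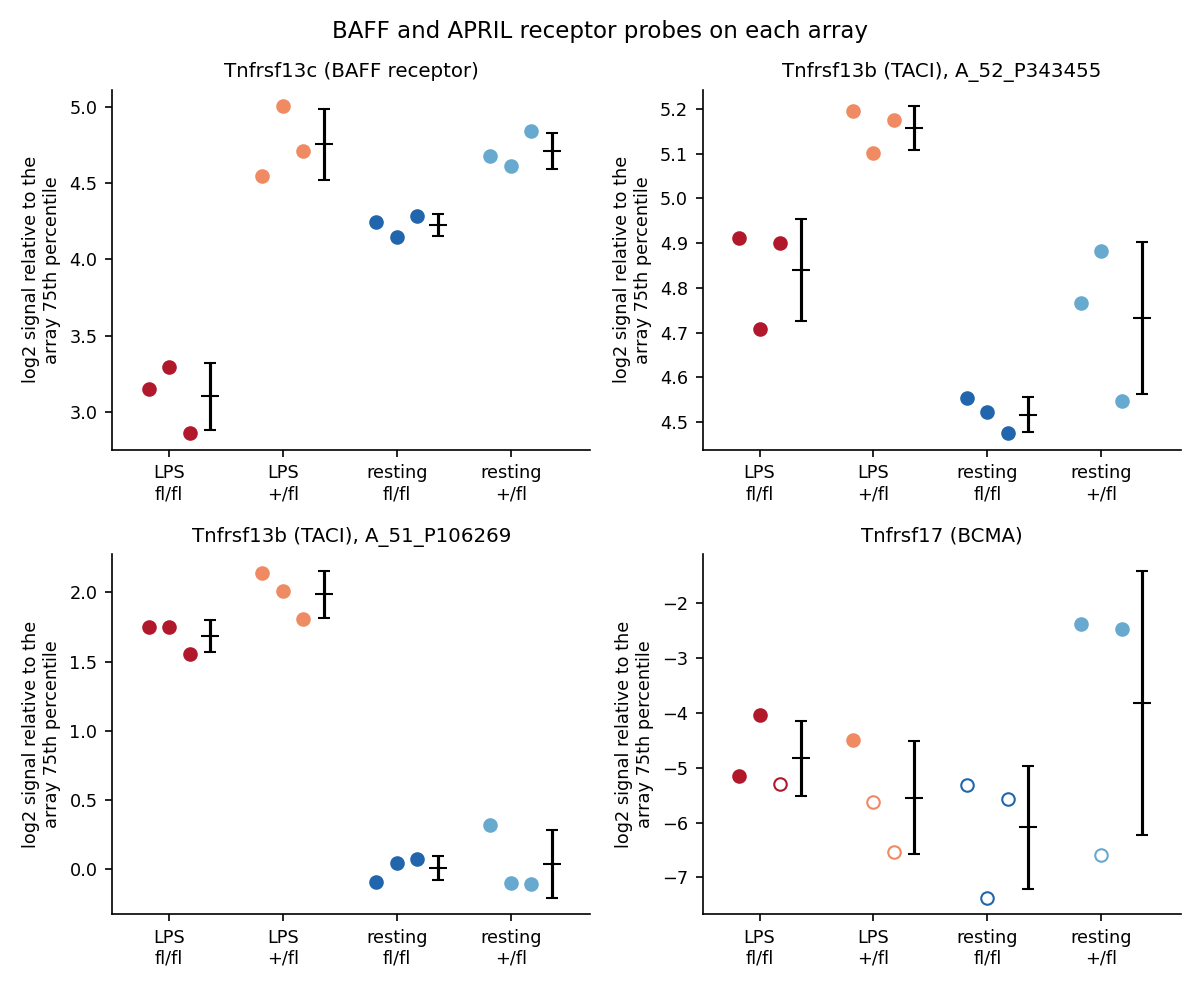
Log2 signal relative to the array 75th percentile for each receptor probe on each of 12 arrays (filled: well above background; open: not), with the mean ± SD of 3 arrays in black. Tnfrsf13c lies at 2.86 to 3.30 in LPS fl/fl cells, below all other arrays, both Tnfrsf13b probes lie higher in LPS than in resting cells of the same genotype, and Tnfrsf17 is above background on 5 of 12 arrays.

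TACI had higher signal after LPS in both genotypes, and its probes differed in how much. At A_51_P106269, Tnfrsf13b read 1.75, 1.75 and 1.55 in LPS fl/fl cells, against −0.09, 0.04 and 0.07 in resting fl/fl cells. In +/fl cells it read 2.14, 2.01 and 1.80 after LPS, against 0.32, −0.10 and −0.11 at rest. No LPS array overlapped a resting array. The rise was 3.20-fold in fl/fl cells (log2 difference 1.68, SE 0.14, limma adjusted p = 5.88e-06) and 3.86-fold in +/fl cells (1.95, SE 0.14, limma adjusted p = 2.02e-06), and both calls held under every alternative run on this probe, each scaling among them. Of all probes 31.2% were higher after LPS in fl/fl cells and 31.1% in +/fl cells.

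At the other probe, A_52_P343455, Tnfrsf13b read 4.91, 4.71 and 4.90 in LPS fl/fl cells, against 4.55, 4.52 and 4.48 in resting fl/fl cells. In +/fl cells it read 5.19, 5.10 and 5.18 after LPS, against 4.77, 4.88 and 4.55 at rest. The LPS arrays lay above the resting arrays within each genotype. The log2 difference was 0.32 in fl/fl cells (SE 0.11, limma adjusted p = 0.0306) and 0.42 in +/fl cells (SE 0.11, limma adjusted p = 0.00782), where the median of all probes was 0.12 and 0.01. These calls rest on the scaling: in the deposited table the differences were 0.12 and 0.01, and with median scaling, which moves the median of all probes to −0.16 and 0.29, they were 0.04 and 0.70, all past no threshold. The fl/fl call was also lost without resting fl/fl replicate 2 or 3 or without LPS fl/fl replicate 1 or 3 (limma adjusted p = 0.0596, 0.0827, 0.0992 and 0.0895).

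The size of the LPS rise differed between the TACI probes. The difference between A_51_P106269 and A_52_P343455, taken within each array so that no scaling enters, was 1.44 higher on the log2 scale in LPS than in resting cells over both genotypes (exact two-sided permutation within genotypes, p = 0.005, the smallest it can give, 0.0167 after Benjamini-Hochberg adjustment over 10 such tests). It was 1.36 higher in fl/fl and 1.53 higher in +/fl cells. The probes followed each other over the 12 arrays (Pearson r = 0.80, as a description). This comparison of probes was chosen after their values were seen, and whether the probes read different transcripts was not tested.

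By genotype, no TACI contrast passed the threshold. After LPS, A_52_P343455 averaged 4.84 ± 0.11 in fl/fl and 5.16 ± 0.05 in +/fl cells (SD, n = 3 each), with no overlap, a difference of −0.32 (95% interval −0.56 to −0.07, limma adjusted p = 0.166). A_51_P106269 averaged 1.68 ± 0.11 in LPS fl/fl and 1.99 ± 0.17 in LPS +/fl cells (SD, n = 3 each), also with no overlap, a difference of −0.30 (95% interval −0.62 to 0.02, limma adjusted p = 0.275). For each probe the exact permutation test of the 3 against 3 LPS arrays gave p = 0.1, the smallest it can give. The lack of overlap thus adds little. In resting cells A_52_P343455 averaged 4.52 ± 0.04 in fl/fl and 4.73 ± 0.17 in +/fl cells, and A_51_P106269 averaged 0.01 ± 0.09 and 0.04 ± 0.25 in the same order (SD, n = 3 each), differences of −0.22 (limma adjusted p = 0.239) and −0.03 (0.922). Over both states together, the same exact permutation test as for Tnfrsf13c gave −0.27 at A_52_P343455 (exact p = 0.01) and −0.17 at A_51_P106269 (exact p = 0.14). The LPS responses of the genotypes differed by −0.10 (95% interval −0.45 to 0.25) at A_52_P343455 and by −0.27 (−0.73 to 0.18) at A_51_P106269.

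Whether the BAFF receptor and TACI differed in their genotype effect was tested within arrays, where scaling has no part. The log2 ratio of Tnfrsf13b to Tnfrsf13c was higher in fl/fl than in +/fl cells over both states, by 0.80 with A_52_P343455 (exact two-sided permutation within states, p = 0.01, 0.02 after adjustment over 10 tests) and by 0.90 with A_51_P106269 (p = 0.005, the smallest this exact test can give, 0.0167 adjusted). After LPS alone it was 1.33 and 1.35 higher in fl/fl cells, and at rest 0.27 and 0.45. With A_52_P343455 the resting arrays of the genotypes overlapped (exact p = 0.2), so the result over both states does not hold in each state. All 3 LPS fl/fl arrays lay above the 3 LPS +/fl arrays, but 3 against 3 arrays cannot give an exact p below 0.1. The same ratio was higher in LPS than in resting cells over both genotypes, by 0.91 with A_52_P343455 (exact p = 0.01, 0.02 adjusted) and by 2.35 with A_51_P106269 (exact p = 0.005, 0.0167 adjusted). With A_52_P343455 it was 1.44 higher after LPS in fl/fl cells but 0.38 in +/fl cells, where the arrays overlapped (exact p = 0.2). With A_51_P106269 it was 2.80 higher in fl/fl and 1.91 higher in +/fl cells. None of the 4 results over both states or both genotypes changed side of the 0.05 threshold when any 1 array was left out.

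**Figure D2:**
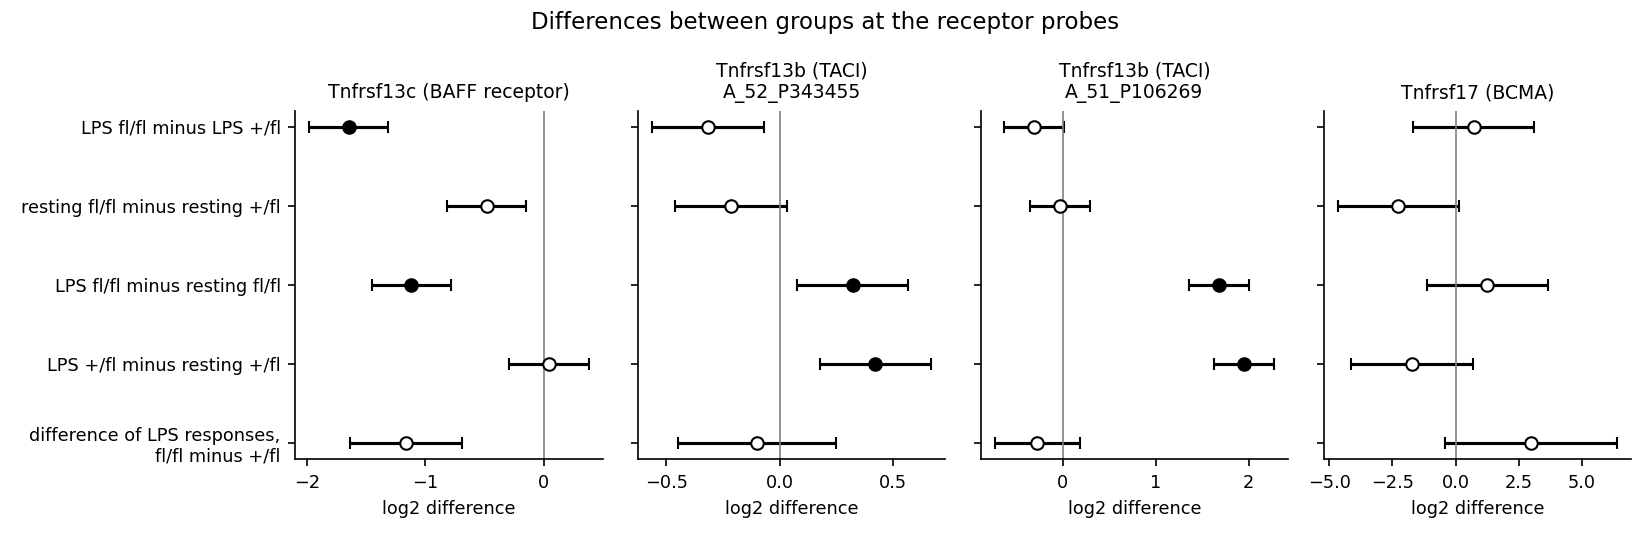
Log2 differences with 95% intervals for each receptor probe in 5 comparisons (filled: limma adjusted p under 0.05; the horizontal scales differ between panels). The LPS genotype difference of Tnfrsf13c, −1.65, lies outside the interval of either Tnfrsf13b probe, whose differences are −0.32 and −0.30.

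BCMA was near background. Tnfrsf17 read −5.15, −4.04 and −5.30 in LPS fl/fl cells, against −4.49, −5.62 and −6.53 in LPS +/fl cells, and −5.32, −7.37 and −5.57 in resting fl/fl cells, against −2.39, −6.59 and −2.47 in resting +/fl cells. It was well above background on 2 of 3 LPS fl/fl arrays, 1 of 3 LPS +/fl arrays, 0 of 3 resting fl/fl arrays and 2 of 3 resting +/fl arrays. The resting +/fl replicates 1 and 3 stood above all other arrays. By array means with the processing used here, resting fl/fl cells, which have only a bound, were at least 2.63-fold lower than resting +/fl cells. The means were −6.09 ± 1.12 in resting fl/fl and −3.82 ± 2.40 in resting +/fl cells (SD, n = 3 each, limma adjusted p = 0.205), and the arrays overlapped. That floor did not hold under other background corrections. The log2 difference was −0.31 with the normexp correction and −0.48 with the repaired normexp correction. This contrast missed the threshold, as did the other 4. By array means and the same bound, LPS fl/fl cells were at least 1.30-fold higher than resting fl/fl cells (−4.83 ± 0.69 and −6.09 ± 1.12, SD, n = 3 each, limma adjusted p = 0.353). That direction turned with the normexp correction (−1.18) and with the repaired normexp correction (−0.45), and the highest LPS fl/fl value was on replicate 2, the array with 83.2% of spots above background. Without resting +/fl replicate 2, Tnfrsf17 was lower in resting fl/fl than in resting +/fl cells (−3.66, limma adjusted p = 0.0254) and lower in LPS than in resting +/fl cells (−3.12, 0.00584), while without replicates 1 and 3 of that group the differences were 0.50 (0.859) and 1.04 (0.426). With the repaired normexp correction the LPS difference in +/fl cells was −1.04 (limma adjusted p = 0.000494).

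Jchain, the joining chain of secreted IgM and IgA, read 2.52, 0.48 and 2.78 on resting fl/fl arrays, against 3.61, 1.92 and 4.63 on resting +/fl arrays. The lowest Tnfrsf17 value of the 12 arrays and the lowest Jchain value were both on resting fl/fl replicate 2. After LPS Jchain read 0.78, 3.16 and 1.77 in fl/fl cells, against 3.44, 1.22 and 2.24 in +/fl cells, and in both LPS groups the array with the highest Jchain also had the highest Tnfrsf17. In both resting groups it did not: Jchain was highest on replicate 3 and Tnfrsf17 on replicate 1. The summed level of all 10 plasma cell markers was 20.2 to 29.6 in resting fl/fl cells, below the 48.7 to 78.5 of resting +/fl cells. These sums include Mzb1, a bright gene that is also on the marginal zone list. It read 3.68, 3.01 and 3.57 in resting fl/fl cells, against 5.41, 5.07 and 5.38 in resting +/fl cells. Mzb1 was the 1 of 10 past the threshold at rest, where 8.10% of all genes passed. Whether the sums differ without Mzb1 was not tested. The medians of the 10 markers, each gene relative to its mean over 12 arrays, overlapped. They were −0.58 to 0.01 in resting fl/fl and −0.20 to 0.58 in resting +/fl cells. Markers of other cells were also high on resting +/fl replicates 1 and 3. Macrophage, monocyte and neutrophil markers (15 of 17 fitted) had a summed level of 28.3 to 48.6 in resting fl/fl cells, against 179.2 and 127.8 on those 2 arrays and 40.3 on resting +/fl replicate 2. T and NK cell markers had 42.8 to 53.3 in resting fl/fl cells, against 67.8 and 61.2 on those arrays and 43.1 on resting +/fl replicate 2. Erythroid markers (7 of 8 fitted) had medians of −1.12 to 0.71 in resting fl/fl cells, against 2.59 and 2.30 on those arrays and 0.37 on resting +/fl replicate 2. Their summed levels did not set those arrays apart: they were 7.66 to 98.2 in resting fl/fl cells, against 75.3 and 57.4. The part of any of these in the Tnfrsf17 values was not tested. In such sorted but mixed RNA, fewer cells of a type and less RNA per cell cannot be told apart.

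**Figure D3:**
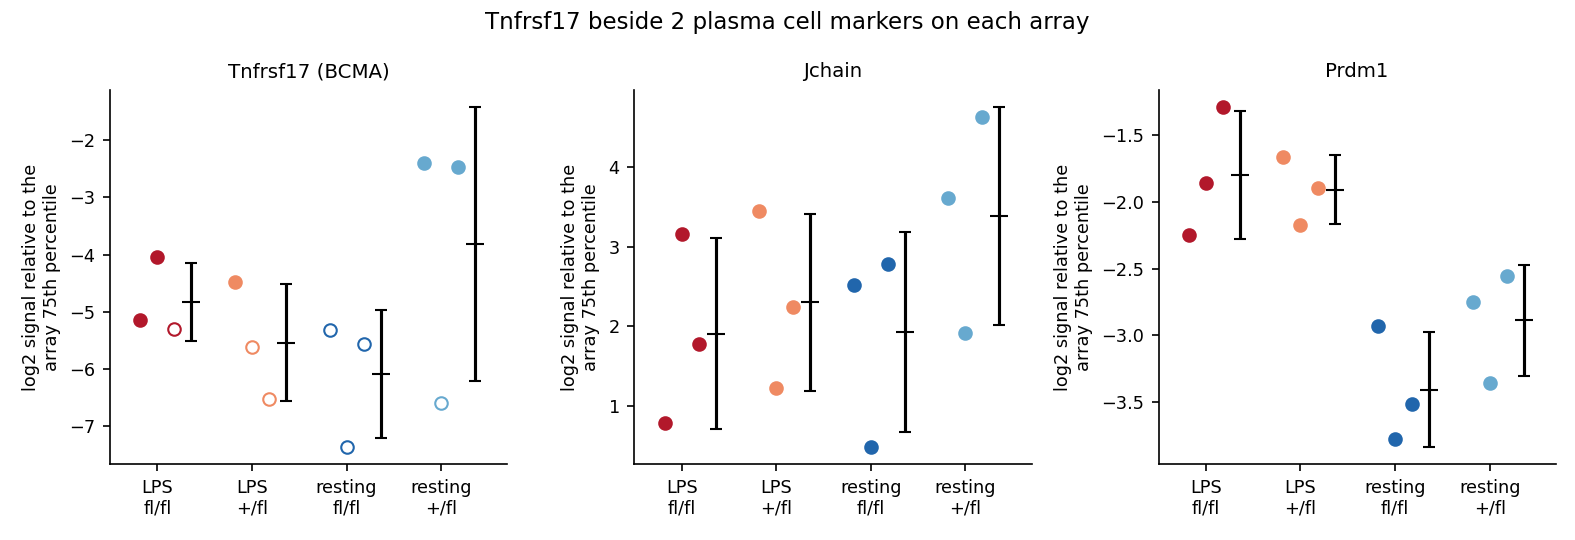
Log2 signal relative to the array 75th percentile of Tnfrsf17, Jchain and Prdm1 on each array, with the mean ± SD of 3 arrays in black (filled: well above background; open: not). Resting +/fl replicates 1 and 3 are the highest for both Tnfrsf17 (−2.39 and −2.47) and Jchain (3.61 and 4.63).

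Marginal zone markers were lower in fl/fl than in +/fl cells both after LPS and at rest, while Tnfrsf13c passed the threshold for genotype after LPS only. Whether their genotype effects differ from that of Tnfrsf13c was not tested. Of 7 fitted marginal zone markers of 8 listed, 4 were lower in LPS fl/fl than in LPS +/fl cells (Cd9, Cr2, Dtx1 and Mzb1) and 5 were lower in resting fl/fl than in resting +/fl cells (Asb2, Cr2, Dtx1, Mzb1 and S1pr3), where 1.15% of all genes passed after LPS and 8.10% at rest. Their summed level was 27.6 to 30.5 in LPS fl/fl and 66.98 to 74.5 in LPS +/fl cells, and 55.1 to 66.1 in resting fl/fl and 125.4 to 149.1 in resting +/fl cells. The groups did not overlap in either state. CD21, the product of Cr2, is also the marker of the further gate. Follicular markers, 5 of 6 fitted, had a summed level of 232.4 to 270.8 in LPS fl/fl and 245.2 to 275.9 in LPS +/fl cells, with 0 of 5 past the threshold after LPS. Summed levels of other lists did not overlap between the LPS genotypes either, in both directions. Transitional B cell markers (6 of 6 fitted) had a summed level of 24.1 to 35.5 in LPS fl/fl and 44.8 to 50.2 in LPS +/fl cells, with 1 of 6 past the threshold. Plasma cell markers (10 of 10) had 26.4 to 40.5 in LPS fl/fl and 44.3 to 61.7 in LPS +/fl cells, and their medians overlapped. The 1 of 10 past the threshold was Mzb1, which is also on the marginal zone list. T and NK cell markers (12 of 12) were higher by this sum, at 10.1 to 14.5 in LPS fl/fl and 7.78 to 9.45 in LPS +/fl cells. Their medians overlapped, at −1.06 to −0.32 and −1.02 to −0.72 in the same order, with 0 of 12 past the threshold. Dendritic cell markers (8 of 8) were higher too, at 1.87 to 2.23 in LPS fl/fl and 1.55 to 1.65 in LPS +/fl cells, with 0 of 8 past it. The part of any of these markers in the Tnfrsf13c difference was not tested. Cd79a, a chain of the B cell receptor complex, was lower in fl/fl cells after LPS (−1.25, limma adjusted p = 0.0143), and the other 9 general B cell markers did not pass.

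Of 4 fitted ligands and other surface binders 1 passed after LPS in fl/fl cells, where 55.3% of all genes did, and 2 in +/fl cells, where 57.5% did. None passed by genotype in either state (3 had an unadjusted p under 0.05 after LPS and 0 at rest, by limma, with no unadjusted share of all genes given). BAFF itself, Tnfsf13b, was dim at means of −4.03 in LPS fl/fl, −5.13 in LPS +/fl, −4.74 in resting fl/fl and −5.02 in resting +/fl cells, and passed in no contrast (adjusted p of 0.227 to 0.869 by limma). The LPS fl/fl mean was raised by replicate 2, which read −2.76, against −4.89 and −4.44 on replicates 1 and 3. APRIL, Tnfsf13, had means of −3.85, −6.11, −2.50 and −2.13 in the same order. It was lower in LPS than in resting +/fl cells (log2 difference −3.97, limma adjusted p = 0.00129), while in fl/fl cells the difference was −1.35 (0.162), where LPS fl/fl replicate 2, the array that stands apart, read −1.71 and the other LPS fl/fl arrays −4.38 and −5.47. Sdc1, a heparan sulfate proteoglycan that binds APRIL, fell after LPS in fl/fl (−2.41, limma adjusted p = 9.67e-05) and in +/fl cells (−2.08, 0.00024).

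In LPS fl/fl against LPS +/fl cells 0 of the 70 fitted genes of 5 pathway lists passed by limma (14 had an unadjusted p under 0.05). Of all 17134 genes 1.15% passed the adjusted threshold, and a count of 0 in 70 is near that share. The share of all genes with an unadjusted p under 0.05 is not given here, so the 14 cannot be judged. The 70 had a median difference of 0.12, against 0.04 for all genes. The lowest adjusted p was 0.0522, that of Bcl2, which opposes cell death (0.61). The adaptors and the alternative arm lay between −0.19 and 0.31, with a median of 0.06 over 15 genes. For the difference between the LPS responses it was again 0 of 70 by limma (18 had an unadjusted p under 0.05), where 0.140% of all genes passed the adjusted threshold. The 18 likewise have no unadjusted share of all genes beside them.

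In resting cells the adaptors that passed were higher in fl/fl cells. Of 15 fitted genes of the adaptors and the alternative arm 4 were higher in fl/fl than in +/fl cells and 0 lower, where 8.10% of all genes passed, 4.22% being higher and 3.88% lower, and the list's median was 0.38 against 0.05 for all genes. Birc3, a ubiquitin ligase bound to TRAF proteins, was higher by 0.68 (limma adjusted p = 0.0352), Traf5 by 0.58 (0.0428), Traf2 by 0.39 (0.0488) and Traf6 by 0.42 (0.0491). These calls lie close to the threshold. The list's summed level was 192.6 to 227.0 in resting fl/fl cells. It was 137.9 and 140.1 on resting +/fl replicates 1 and 3 and 170.9 on replicate 2. Whether the 4 calls hold without replicates 1 and 3 was not tested. In the classical arm 1 of 8 passed: Nfkbia, the inhibitor of NF-kB, was 0.79 higher (limma adjusted p = 0.0222). Of the kinases and survival genes 1 of 22 passed, Bcl2a1b, a relative of Bcl2, which was 0.68 lower (log2 difference −0.68, limma adjusted p = 0.0153), and its near-identical copies Bcl2a1a and Bcl2a1d have no probe of their own here, so its signal may include them. Of 21 other TNF receptors 2 were higher, Ngfr (2.41, limma adjusted p = 0.0241) and Tnfrsf26 (0.67, 0.0459), and 1 lower, Tnfrsf21, the death receptor DR6 (−1.997, 0.00399).

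After LPS most pathway genes changed in both genotypes, as did most genes of the array. In fl/fl cells 46 of 70 passed, where 55.3% of all genes did, and in +/fl cells 52 of 70, where 57.5% of all genes did. The adaptor Traf1 rose (2.70 in fl/fl and 2.99 in +/fl cells), as did Tnfaip3, the deubiquitinase A20 (1.83 and 2.28). Traf6, another adaptor, rose by 0.45 and 0.97. Traf5 (−2.09 and −1.58), Traf3ip3, a partner of TRAF3 (−2.75 and −2.51), and Map3k14, the kinase NIK (−1.54 and −1.39), fell. Among survival genes Bcl2l1, which codes for Bcl-xL, rose by 4.93 in fl/fl and 4.76 in +/fl cells, Bcl2a1b by 3.69 and 3.05, Bax, which promotes cell death, by 3.28 and 2.93, and the kinase Pim2 by 3.06 and 2.73, while Btk, a kinase of the B cell receptor (−1.88 and −1.34), and the transcription factor gene Mef2c (−2.17 and −1.98) fell. In the classical arm the subunit genes Nfkb1 (1.30 and 1.59) and Rel (1.67 and 1.07) and the inhibitor genes Nfkbib (1.61 and 1.81) and Nfkbia (0.72 and 1.42) rose, and the kinase gene Ikbkb fell (−0.52 and −0.44). Of 21 other TNF receptors 10 rose and 4 fell in fl/fl cells, where 29.7% of all genes rose and 25.6% fell, and 10 rose and 7 fell in +/fl cells, where 30.2% rose and 27.3% fell. The death receptor gene Fas rose by 2.80 and 1.85 and Tnfrsf1b, a receptor of TNF, by 1.52 and 1.21. Tnfrsf10b, a receptor of TRAIL, rose by 4.16 and 4.75 and Tnfrsf21 by 2.40 and 0.72, while Ngfr (−6.56 and −4.57) and Relt (−1.76 and −1.61) fell. Both genotypes' responses are given side by side, and no pathway gene passed for their difference.

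**Figure D4:**
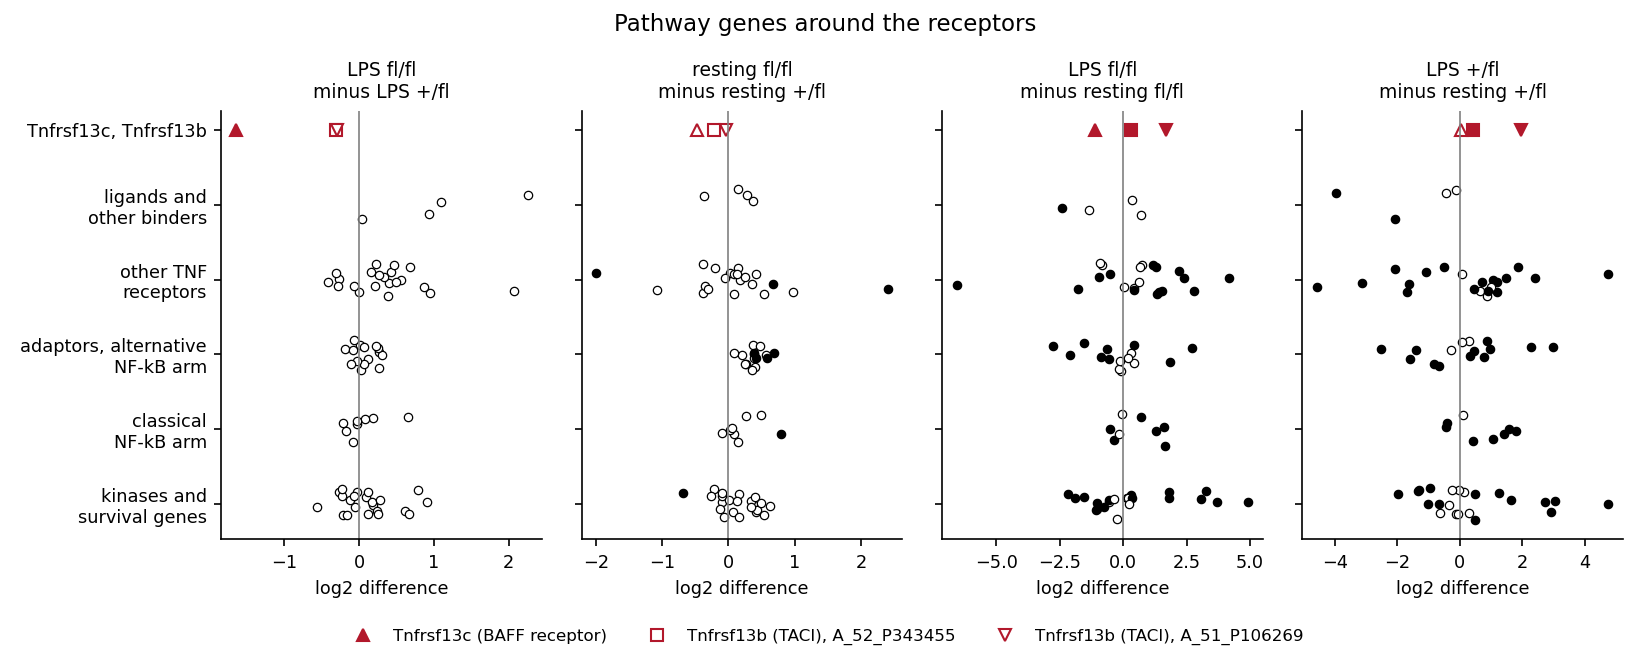
Log2 differences of Tnfrsf13c and both Tnfrsf13b probes (red) and of 70 pathway genes in 5 lists (circles, spread vertically for visibility) in 4 comparisons (filled: limma adjusted p under 0.05; the horizontal scales differ). In LPS fl/fl against LPS +/fl cells Tnfrsf13c alone is filled and lies left of every pathway gene, the lowest of which is at −0.57.

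The genes whose signal followed the receptors most closely over the 12 arrays, by Pearson correlation over all fitted probes, were different for each. For Tnfrsf13c they were Dtnbp1 (r = 0.95), Mcm4 (0.95), Tmem131 (0.92), Afp (0.91) and Cdt1 (0.90). In the same order, their fitted differences between LPS fl/fl and LPS +/fl cells were −0.35, −0.70, −0.58, −1.66 and −0.97. Lower values there follow from choosing genes by their correlation with Tnfrsf13c. Mcm4 and Cdt1 act in the licensing of DNA replication. For Tnfrsf13b at A_52_P343455 they were Kyat3 (r = 0.97), Diablo, Trip6, Atpaf1 and Vdac3 (each 0.95). For Tnfrsf17, mostly below background, they were Dapl1 (r = 0.90), Tnnt1 (0.89), Cd8b1 (0.85), Kifc5b and Sgo2a (both 0.84). These are descriptions of 12 arrays that share 4 groups. Tnfrsf13c and A_52_P343455 had r = 0.12.

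The genotype difference of Tnfrsf13c after LPS was recomputed under 29 alternatives. It ranged from −2.17 with median scaling to −1.17 with the normexp correction and kept its sign in all of them.

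**Figure D5:**
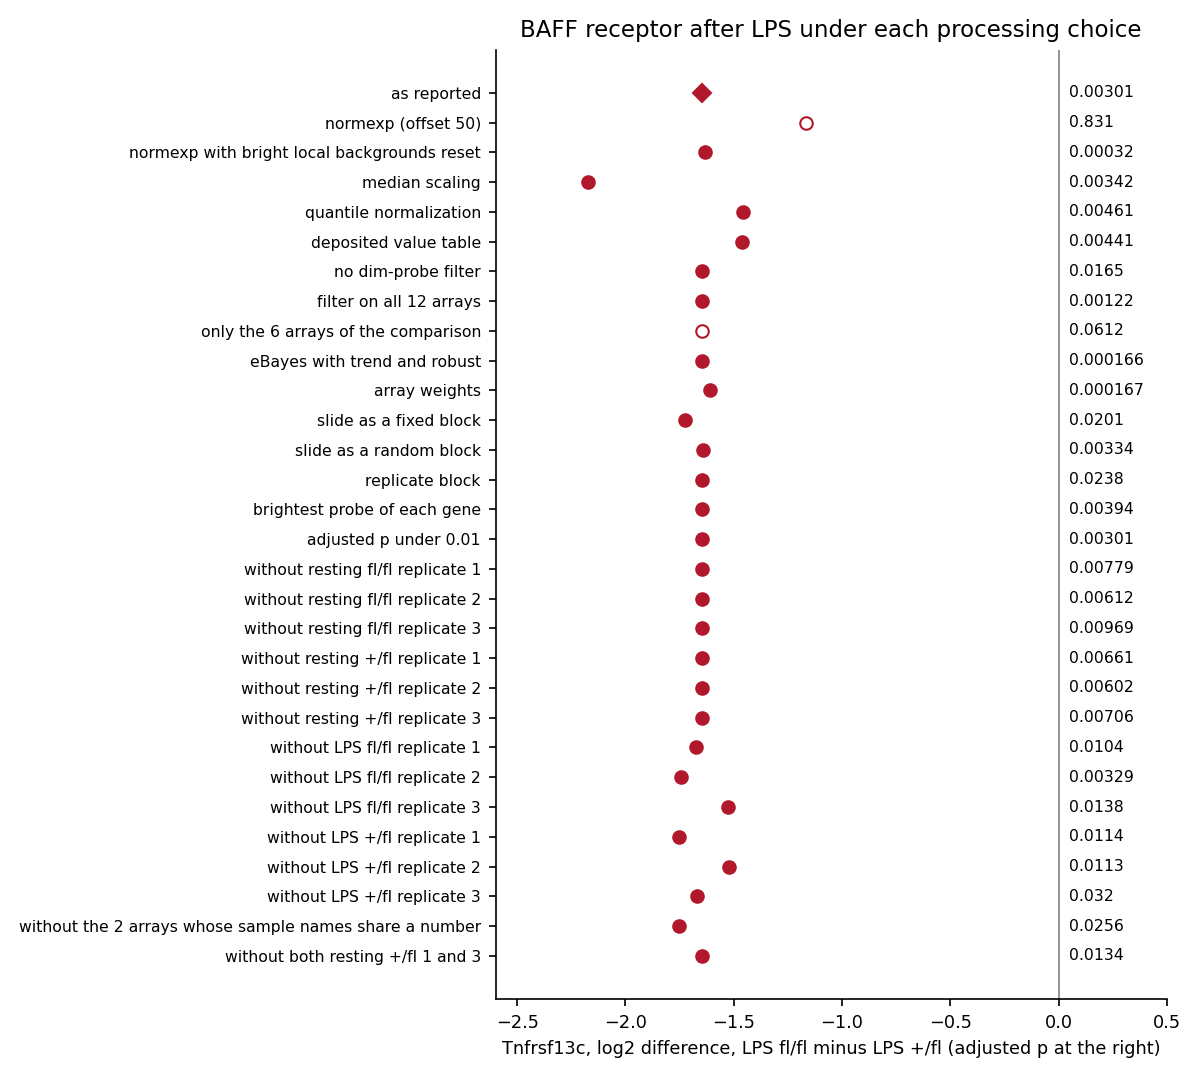
Log2 difference of Tnfrsf13c, LPS fl/fl minus LPS +/fl, as reported (diamond) and under each alternative (circles), with the limma adjusted p at the right (filled: past the threshold). All values lie between −2.17 and −1.17, and 2 of 29 alternatives are open.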

How the data were processed

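Sorted splenic B cells were measured on 12 one-colour Agilent mouse arrays, 4 on each of 3 slides. The authors' scanner files hold intensity, per the file headers: the background-subtracted Cy3 signal (gProcessedSignal), from Feature Extraction 9.5.3.1 per the headers and 9.1 per the submitters' processing notes. The deposited value table holds intensity on a linear scale with 1 common set of values in all columns (median 30.8). No source used here gives its normalization, no value is centred, and higher means more signal in both.

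Flagged spots were left out, spots of a probe were averaged, and log2 values were set relative to each array's 75th percentile. Probes that 3 or more arrays measured well above background (25678 of 41174, all 4 receptor probes among them) entered 1 limma 3.58.1 fit (R 4.3.3) of 4 group means. Contrasts were adjusted by Benjamini-Hochberg over all probes, with a threshold of 0.05. Gene lists were read at each gene's brightest probe. Of the probes, 22895 were named by accession, 6645 by symbol, 3103 by older symbol, and 8444 kept the file's name, from a mouse gene table that gave names only. Where a group was above background on no array, a fold is a lower bound for the array means alone. It sets the measured mean of the brighter group against a bound on each array of the dimmer one. That bound is the higher of the probe's signal and the lowest signal well above background. Within-array ratios were tested by exact two-sided permutation, with the 10 tests over both states or genotypes adjusted together.

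On simulated data for the LPS genotype comparison, over 25678 probes, 41% of changes of log2 size 1 and 76% of size 2 were recovered. Named genes were the receptor probes, the 2 ligands, Ebf1, up to 5 pathway genes past the threshold per list and contrast, and the 5 most correlated genes. Jchain, marker genes and genes named beside a lowest p were chosen after their values were seen. The members, lists and tests were chosen with earlier results of these data known. The labels do not say that replicate numbers pair the samples. Deviations of same-numbered arrays from their group means correlated at −0.14 to 0.10 (18 pairs), and those of differently numbered arrays at −0.10 to 0.12 (36 pairs). Such values cannot exclude a shared source. In 1 alternative, resting +/fl replicate 3 and LPS +/fl replicate 1, whose sample names share a number, were left out. All arrays differed by more than copies of 1 array would, with correlations of 0.967 to 0.988 within groups.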

Additional observations from a re-analysis of the deposited data

How the results depend on the processing

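The report's lower Tnfrsf13c signal in LPS fl/fl cells kept its sign in all 29 alternatives and its call in 27. The calls for A_51_P106269 after LPS and the 5 called within-array ratio tests kept direction and side of the threshold in every alternative run. In all, 729 of 860 recomputed values did. The cause of each other change was not tested, apart from those that lie in fewer probes or arrays.

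Probes past the threshold, 2003 in the resting genotype comparison, were 0 with normexp (offset 50), 389 with median scaling, 432 without the filter on dim probes, 157 with the 6 arrays alone, 3030 with trended and robust variances, 868 with the replicate block, 204 at an adjusted p under 0.01, 237 without the 2 arrays with a number in common in their sample names, 115 without resting +/fl replicates 1 and 3, and 564 to 2275 with 1 array left out. In the LPS genotype comparison, 264 became 0 with normexp, 461 with repaired normexp, 140 after quantile normalization, 144 in the deposited table, 27 without the filter, 543 with the filter on all 12 arrays, 30 with 6 arrays, 694 with trend, 3967 with array weights, 7 with slide as a fixed block, 45 with the replicate block, 19 at 0.01, 19 without those 2 arrays, 145 without the resting +/fl pair, and 29 to 235 with 1 array left out. After LPS, 14114 in fl/fl cells became 3079 with normexp and 8907 with median scaling, and 14657 in +/fl cells became 1833 with normexp. For the difference of responses, 34 became 0 with normexp, 126 with repaired normexp, 18 with median scaling, 56 after quantile normalization, 10 without the filter, 144 with the filter on 12, 459 with trend, 501 with weights, 10 with the slide block, 4 with the replicate block, 6 at 0.01, 5 without those 2 arrays, and 9 to 152 with 1 array left out. Where 0 passed by limma with normexp, 340 probes in the resting genotype comparison, 411 in the LPS genotype comparison and 194 for the difference of responses had an unadjusted p under 0.05. The repaired normexp resets local backgrounds over 2 times an array's median to that median.

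For Tnfrsf13c, the LPS genotype difference lost its call with normexp (−1.17) and 6 arrays (−1.65), and the LPS difference in fl/fl cells with normexp (−0.71). The resting difference gained a call with repaired normexp (−0.52) and at −0.48 with the filter on 12 and with trend. The difference of responses gained one with repaired normexp (−1.12), at −1.17 with the filter on 12 and with trend, and with weights (−1.14). The LPS difference in +/fl cells turned to −0.37 after quantile normalization and −0.36 in the deposited table, and ranged from −0.081 to 0.15 with 1 array left out.

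For Tnfrsf13b A_52_P343455, the LPS call in fl/fl cells was lost with normexp (0.72), median scaling (0.041), quantile normalization (0.12), the deposited table (0.12), and at 0.32 without the filter, with 6 arrays, with the replicate block and at 0.01, and it ranged from 0.29 to 0.39 with 1 array left out. In +/fl cells it was lost with normexp (0.40), median scaling (0.70), quantile normalization (0.00066), the deposited table (0.014), without those 2 arrays (0.31) and without the resting +/fl pair (0.27). The LPS genotype difference turned to 0.16 with normexp and was called with weights (−0.27). The difference of responses turned to 0.33 with normexp, 0.12 after quantile normalization, 0.11 in the deposited table, 0.0077 with the slide block, 0.010 without those 2 arrays and 0.049 without the resting +/fl pair. For A_51_P106269, the resting difference turned to 0.039 with normexp, 0.013 with weights and 0.11 without the resting +/fl pair, with −0.10 to 0.11 when 1 array was left out, and with normexp the LPS genotype difference was 0.073 and the difference of responses 0.034.

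Tnfrsf17, mostly below background, changed most. Its LPS genotype difference turned to −0.90 with normexp, −0.27 after quantile normalization, −0.29 in the deposited table and −0.64 with the slide block. Its LPS difference in fl/fl cells turned to −1.18 with normexp and −0.45 with repaired normexp, and its difference of responses to −0.59 with normexp. In +/fl cells repaired normexp gave a call (−1.04) and the fit without the resting +/fl pair 1.04, and in resting cells that fit gave 0.50. With 1 array left out, the resting difference was −3.66 to −1.56 and the LPS difference in +/fl cells −3.12 to −1.02. The genotype effect on its ratio to Tnfrsf13c was 0.88 with repaired normexp (exact p = 0.04), −0.26 in the deposited table and −0.38 to 0.65 with 1 array left out, and the LPS effect −0.55 with normexp, −0.28 with repaired normexp and −0.37 to 0.67 with 1 left out. On its ratio to A_52_P343455 the genotype effect was 0.093 and the LPS effect −1.18 (exact p = 0.005) with repaired normexp.

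The replicate block changed 1 receptor call, that of A_52_P343455 in fl/fl cells (0.32, limma adjusted p = 0.0536). The labels do not say that the numbers pair the samples. The alternative on all 12 arrays gives no value for Tnfrsf17, the brightest probe of each gene none for A_51_P106269, and the 6-array fit none for the difference of responses. The exact test of 3 against 3 arrays cannot go below 0.1.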

Other observations

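At the Tnfrsf13b probe A_51_P106269 the 5 most closely correlated genes over the 12 arrays were Wdr12, Marchf5, Pelp1, Rbmx2 and Ak6 (r = 0.99 each, as a description), none of them shared with the 5 of A_52_P343455. Wdr12, which acts in ribosome assembly, had LPS differences of 2.87 in fl/fl and 3.02 in +/fl cells, Pelp1 of 2.93 and 3.37, and Ak6 of 2.27 and 2.60. Those of Marchf5 were 0.84 and 0.94, and those of Rbmx2 0.99 and 1.18. Such rises follow from choosing genes by their correlation with this probe. Prdm1, the regulator of plasma cell fate, read −2.25, −1.86 and −1.29 in LPS fl/fl cells and −1.66, −2.18 and −1.89 in LPS +/fl cells, against −2.93, −3.78 and −3.52 in resting fl/fl cells and −2.75, −3.36 and −2.56 in resting +/fl cells. All LPS arrays lay above all resting arrays for Prdm1, which was not so for Tnfrsf17. The list of plasma cell markers did not rise as a whole: of 10 genes, 3 were higher and 2 lower after LPS in each genotype. Of all genes 29.7% were higher and 25.6% lower in fl/fl cells, and 30.2% and 27.3% in +/fl cells.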
